A study of Rattus norvegicus with 30 samples.

Results

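The channels that let glycerol cross the cell membrane and the first enzymes that act on it were followed here in cultured rat hepatocytes exposed to dioctyl phthalate. The genes are Aqp3, Aqp7 and Aqp9, which encode aquaglyceroporins, Gk, which encodes glycerol kinase, and Gpd1, which encodes the cytosolic glycerol-3-phosphate dehydrogenase. They were taken by name from the platform's gene table, with every probe set annotated to them. This gave 5 genes of the 14217 that have a probe set of their own, and 7 of the 31042 probe sets that are not controls. Gk and Gpd1 have 2 probe sets each.

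Glycerol reaches the liver mainly from fat stores, where triglyceride is cut into fatty acids and glycerol. In rodents Aqp7 is known as the channel through which fat cells release glycerol, Aqp9 as the channel through which hepatocytes take it up, and Aqp3 as a water and glycerol channel of kidney and skin. Inside the hepatocyte, glycerol kinase makes glycerol-3-phosphate. That product is either oxidised to dihydroxyacetone phosphate, on the way to glucose, or acylated on the way to triglyceride and phospholipid. Gpd1 joins these routes, since it works in both directions between dihydroxyacetone phosphate and glycerol-3-phosphate.

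The series asks how dioctyl phthalate, a phthalate ester used as a plasticiser, acts on rat hepatocytes in primary culture. All cells were bought frozen, came from male Sprague Dawley rats, were plated on collagen under a Matrigel overlay, and met the compound on day 3 of culture. The 6 groups were 250 µM and 1000 µM dioctyl phthalate at 48 h, vehicle (1% DMSO) at 48 h, and the same 2 doses and vehicle at 24 h, with 5 arrays per group and 30 in all. Each array holds RNA of 1 culture well; the sources used here do not say how many animals or vials lay behind the wells, so p-values measure the spread between wells. Of 10 hepatocyte markers 9 had a probe set and all 9 were over the low-signal limit, with Alb at a mean signal of 64120.4. The adipocyte markers Adipoq, Lep and Plin1 were under that limit, and Cfd was over it with a mean signal of 339.6. Summed over the 4 measured adipocyte markers, signals ran from 577 to 1009 at 250 µM and from 756 to 1009.9 at 1000 µM against 429 to 749 in vehicle at 48 h. The corresponding sums at 24 h ran from 714 to 1050.2 at 250 µM and from 773 to 1079 at 1000 µM against 633 to 1025 in vehicle. At 48 h the sums of 1000 µM arrays thus lay above those of vehicle, and the part of this in the results was not tested. Over the limit were also 4 of 6 measured stellate cell markers, 3 of 5 Kupffer cell, 2 of 5 endothelial, 1 of 4 cholangiocyte and 3 of 3 erythroid markers. At 48 h the summed signals of each of these 5 lists overlapped between treated and vehicle arrays. The highest sums in treated and in vehicle arrays were 3673 and 3202 (stellate), 1839 and 1916 (Kupffer) and 1480 and 1378 (endothelial). For cholangiocyte markers they were 13529 and 15557, and for erythroid markers 1499 and 1204. Hepatocyte sums at 48 h overlapped too, but lay mostly lower in treated arrays. They ran from 362138 to 411161 at 250 µM and from 335920 to 401262 at 1000 µM, against 395929 to 465032 in vehicle. The part of this in the results was not tested. Since RNA of whole wells was read, fewer cells of a type and less RNA per cell cannot be told apart.

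Values are the authors' MAS5 signals, a linear measure of probe set brightness, and tests used log2(signal + 1). A gene counts as changed where its adjusted p from limma, over the 10528 tested genes, was under 0.05. Of the 5 genes 4 were tested; Aqp3, with a mean log2 signal of 6.61, lay under the low-signal limit of 7.88 (a signal of 234). The dimmer probe sets of Gk and Gpd1, and that of Aqp3, were read from a second limma fit of all 31042 probe sets. Vehicle arrays at 48 h stood apart in RNA quality. Their beta-actin ratio, the 3' over the 5' control probe set on the log2 scale, averaged 1.72 ± 0.49, against 1.14 ± 0.08 in vehicle at 24 h (SD, n = 5 each), and vehicle replicate 4 at 48 h, at 1.04, was the only array of its group in the range of the 24 h vehicle arrays. Results against vehicle at 48 h are therefore also given with replicate 4 as the only vehicle array, which is assumed to vary like the other groups. Pearson correlations between arrays of a group lay between 0.968 and 0.986.

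Promoter windows from RefSeq (rat build GRCr8) are printed for Aqp3, Aqp9 and Gk, whose signals moved in opposite directions under the compound. The table held these 3 of the 5 genes, without Aqp7 and Gpd1. Each window runs from 250 bases before to 50 bases after the gene's start, and all 3 lie on the minus strand, at chr5:61040634-61040933 for Aqp3, chr8:80718139-80718438 for Aqp9 and chrX:54189682-54189981 for Gk. Capitals mark the GC box motif GGGCGG on either strand. They also mark the TATA box motif TATAAA.
Aqp3: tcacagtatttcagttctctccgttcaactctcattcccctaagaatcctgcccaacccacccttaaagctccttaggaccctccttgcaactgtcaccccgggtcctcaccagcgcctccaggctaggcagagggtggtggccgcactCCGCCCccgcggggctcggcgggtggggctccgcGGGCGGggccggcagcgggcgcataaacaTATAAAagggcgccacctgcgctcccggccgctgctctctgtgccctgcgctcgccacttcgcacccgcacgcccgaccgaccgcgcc
Aqp9: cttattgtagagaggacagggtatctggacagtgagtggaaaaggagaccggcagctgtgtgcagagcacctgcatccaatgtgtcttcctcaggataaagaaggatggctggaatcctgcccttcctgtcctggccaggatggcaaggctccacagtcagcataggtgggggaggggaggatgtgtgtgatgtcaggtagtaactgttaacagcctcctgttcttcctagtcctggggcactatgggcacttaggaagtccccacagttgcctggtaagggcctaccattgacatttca
Gk: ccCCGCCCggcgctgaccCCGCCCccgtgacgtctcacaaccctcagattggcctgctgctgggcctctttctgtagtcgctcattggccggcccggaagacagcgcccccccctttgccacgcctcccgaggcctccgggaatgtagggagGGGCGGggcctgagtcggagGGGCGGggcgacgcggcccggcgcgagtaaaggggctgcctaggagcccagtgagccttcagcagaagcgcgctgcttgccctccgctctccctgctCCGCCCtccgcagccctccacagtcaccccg
The direct repeat of AGGTCA with 1 letter between its copies, the form that PPAR and RXR receptors bind as a pair, was searched on both strands and was in none of the 3 windows. Neither were a version with A between the copies and up to 2 letters different, nor the single core AGGTCA. Among all 33469 windows of the table these letters were in 0.0538%, 1.31% and 16.2%, taken in that order; the core lies inside the full repeat. GGGCGG was found 5 times in the Gk window and 2 times in the Aqp3 window, and is in 33.1% of all windows. TATAAA was found 1 time, in the Aqp3 window, and is in 14.2% of all windows. The Aqp9 window held neither. These letters are a description of the windows only. On GRCr8 chromosome 5, Aqp3 and Aqp7 are neighbours, with 1 gene between them that is not protein coding.

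Both doses moved the tested genes in the same pattern at both times. Aqp7, Gk and Gpd1 rose and Aqp9 fell in each of the 4 comparisons with vehicle, so that 3 of 4 rose and 1 of 4 fell. Both doses at a time were set against the same vehicle arrays. Over all tested genes, 15.2% rose and 26% fell at 250 µM and 48 h, and 11.5% rose and 18.3% fell at 1000 µM and 48 h. At 24 h, 8.31% rose and 11% fell at 250 µM, and 8.28% rose and 11.2% fell at 1000 µM. With array medians centred, the genes called at 1000 µM and 24 h were 682 higher and 609 lower, in place of 872 and 1179. The median log2 change of the 4 genes was 1.35 and 1.24 at 48 h and 1.21 and 1.21 at 24 h (250 and 1000 µM in turn), while the median of all tested genes lay between -0.07 and -0.03. Among the 10528 tested genes ordered by log2 change, Aqp7 was at place 15 and 16 from the top at 48 h and 70 and 50 at 24 h. Gk was at place 48 and 40 from the top at 48 h and 21 and 27 at 24 h. Gpd1 was at place 119 and 117 at 48 h and 83 and 84 at 24 h.

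**Figure D1:**
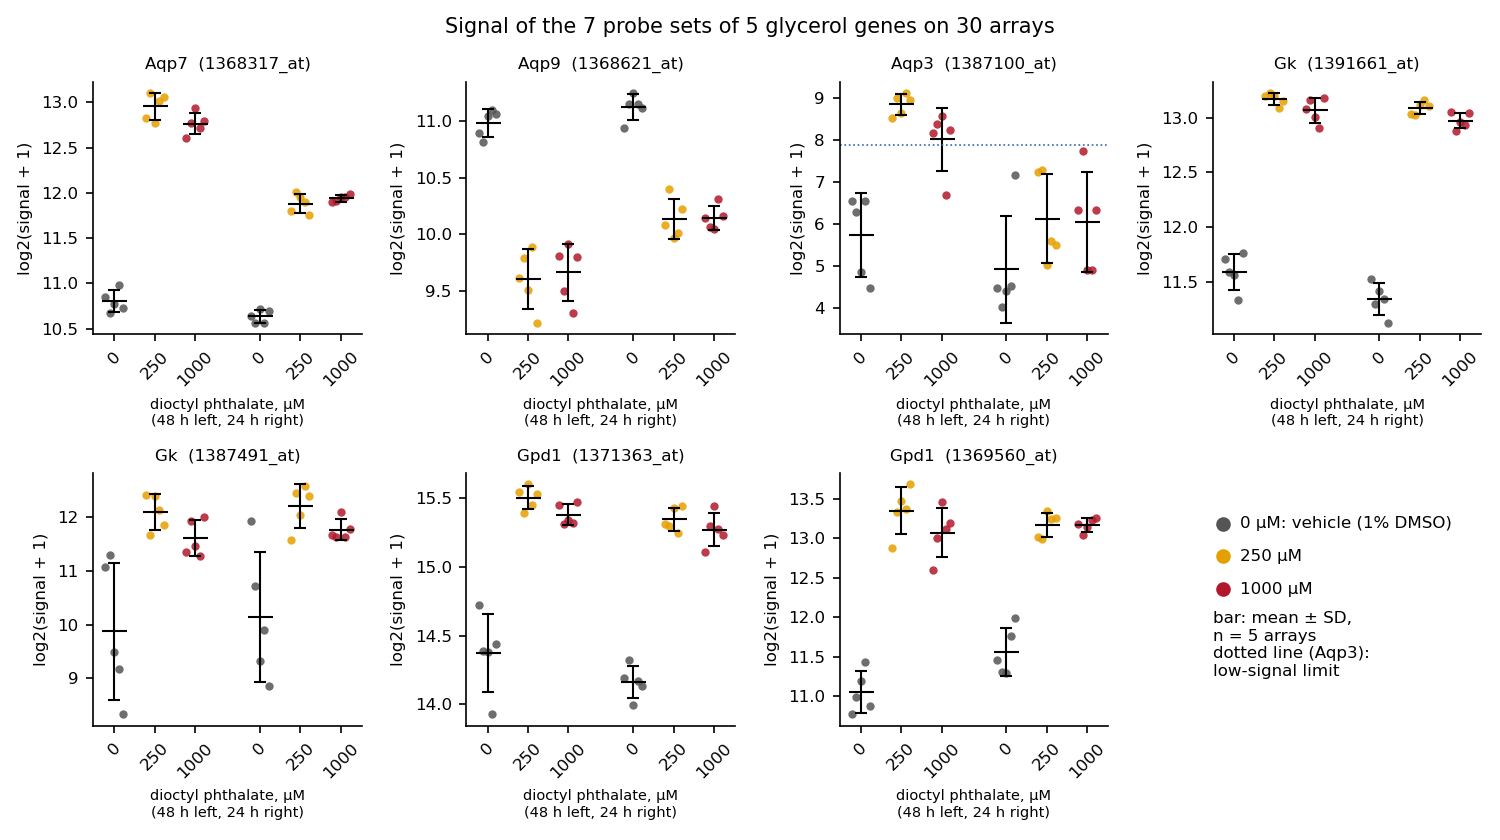
Signal of each probe set as log2(signal + 1) on all 30 arrays, by dose of dioctyl phthalate in µM, with 48 h left and 24 h right in each panel; points are arrays, bars the mean ± SD of 5 arrays, and the dotted line the low-signal limit. Aqp7, Gk 1391661_at and both Gpd1 probe sets sit above vehicle at both doses and times, Aqp9 below it, and Aqp3 reaches the limit at 48 h only.

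Aqp7, the glycerol channel of fat cells, rose over 4-fold at 250 µM and 48 h and less far at 24 h. Its probe set 1368317_at read 7253, 8789.8, 6994, 8258 and 8557 at 250 µM and 6237, 6987, 7814, 6708 and 7098 at 1000 µM, against 1848, 1628, 1745, 2021 and 1695 in vehicle at 48 h. At 24 h it read 3549.5, 4106, 3959, 3819 and 3463 at 250 µM and 3812, 3843, 3954, 3971 and 4073 at 1000 µM, against 1590.1, 1517, 1683, 1513 and 1661 in vehicle. Every treated array thus lay above every vehicle array, and every treated array at 48 h above every treated array at 24 h. The log2 change at 48 h was 2.15 at 250 µM (4.45-fold, adjusted p = 5.6e-22) and 1.96 at 1000 µM (3.90-fold, adjusted p = 9.8e-21). At 24 h it was 1.24 (2.37-fold, adjusted p = 1.1e-15) and 1.30 (2.47-fold, adjusted p = 3.3e-16), each with an SE of 0.07. The 48 h changes against vehicle replicate 4 alone were 1.97 and 1.78.

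Aqp9, the hepatocyte's own glycerol channel, went the other way. Probe set 1368621_at read 782, 883, 727, 946 and 593 at 250 µM and 895, 723, 960.1, 631 and 889 at 1000 µM, against 1907, 1805, 2114, 2195 and 2144 in vehicle at 48 h. The 24 h arrays read 1079, 1347, 999, 1027 and 1191 at 250 µM and 1128, 1070.1, 1053, 1269.7 and 1145 at 1000 µM, against 1958, 2280.0, 2435, 2282 and 2220.4 in vehicle. No treated array reached the lowest vehicle array of its time. The fall was 2.61-fold at 250 µM and 2.50-fold at 1000 µM at 48 h (log2 change -1.38 and -1.32, adjusted p = 1.5e-11 and 5.9e-11). The 24 h fall was 1.99-fold and 1.97-fold (-0.99 and -0.98, adjusted p = 4.4e-08 and 6.1e-08, SE 0.12 for each). The 48 h changes against vehicle replicate 4 alone were -1.50 and -1.44. In the order of log2 changes Aqp9 stood at place 43 and 27 from the bottom at 48 h and 66 and 55 at 24 h.

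Aqp3 was dim everywhere and rose above the low-signal limit at 48 h under both doses. Probe set 1387100_at read 366, 511, 394, 552 and 492 at 250 µM and 286, 333, 376, 101 and 300.3 at 1000 µM, against 91.5, 77.1, 27.8, 91.9 and 21 in vehicle at 48 h. On the 24 h arrays it read 149, 154, 31.1, 47.2 and 43.8 at 250 µM and 79.3, 213, 28.6, 28.7 and 79.2 at 1000 µM, against 21, 15.2, 20.1, 21.9 and 143 in vehicle. All 5 arrays at 250 µM and 4 of 5 at 1000 µM were over the limit at 48 h, and 0 of 5 in each other group. At 48 h the treated and vehicle arrays did not overlap, although replicate 4 at 1000 µM, at 101, lay close to the highest vehicle array, at 91.9. In the fit of all probe sets the log2 change at 48 h was 3.11 at 250 µM (adjusted p = 1.8e-04) and 2.27 at 1000 µM (adjusted p = 0.0076), each with an SE of 0.60, where 8.48% and 5.96% of all probe sets rose. Since vehicle was under the limit, the treated mean at 48 h was set against the limit. It lay 1.95-fold above it at 250 µM and 1.09-fold above it at 1000 µM. The limit is the cut of the low-signal filter, not a floor of detection. These 2 values carry no error and are no lower bounds of the rise. At 24 h the changes of 1.21 and 1.12 did not pass (adjusted p = 0.283 and 0.325), and the groups overlapped. Both 48 h calls were lost against vehicle replicate 4 alone (2.30, adjusted p = 0.263, and 1.47, adjusted p = 0.621), and the call at 1000 µM also with the beta-actin ratio as a covariate (2.03, adjusted p = 0.0648). Without vehicle replicate 5 at 24 h, the array at 143, the change at 250 µM and 24 h was 1.77 and passed (adjusted p = 0.0453).

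Gk, which phosphorylates glycerol and so holds it in the cell, rose about as far at 24 h as at 48 h. Its brighter probe set 1391661_at read 9377, 9553, 9417, 8717 and 9089.6 at 250 µM and 8640.4, 9158, 8211, 7660.4 and 9291 at 1000 µM, against 3341, 3083, 3028, 2585 and 3474 in vehicle at 48 h. The earlier time gave 8373, 8345, 8842, 9177 and 8831 at 250 µM and 8487, 7537, 7957, 7826 and 8431 at 1000 µM, against 2948, 2524, 2726, 2595 and 2234 in vehicle. The lowest treated array stood at over 2 times the highest vehicle array. The log2 change was 1.58 (2.99-fold, adjusted p = 1.4e-18) and 1.47 (2.78-fold, adjusted p = 1.4e-17) at 48 h and 1.75 (3.36-fold, adjusted p = 1.3e-19) and 1.63 (3.10-fold, adjusted p = 8.5e-19) at 24 h, with an SE of 0.07. The 48 h changes against vehicle replicate 4 alone were 1.84 and 1.73.

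The dimmer Gk probe set, 1387491_at, rose too but spread widely in vehicle. It read 5489, 3249, 5424, 4487 and 3699 at 250 µM and 2619, 3916, 2833, 2491 and 4125 at 1000 µM, against 2171, 2505, 719, 578 and 321 in vehicle at 48 h. The 24 h signals were 3072, 5607, 4246, 6121 and 5369 at 250 µM and 3281, 3194, 4399, 3163 and 3537 at 1000 µM, against 3889, 1690.1, 644, 951 and 464 in vehicle. Treated and vehicle arrays overlapped in 3 of the 4 comparisons, the exception being 250 µM at 48 h. The changes were 2.22 and 1.74 at 48 h (adjusted p = 2.1e-04 and 0.0046) and 2.06 and 1.62 at 24 h (adjusted p = 0.0011 and 0.0122), with an SE of 0.43. Against vehicle replicate 4 alone the 48 h changes were 2.92 and 2.43, over 1.5 times larger as folds. That array, at 578, is one of the later arrays, on which this probe set was low in vehicle (given under Other observations). For this probe set the setting therefore cannot tell RNA quality from array order. At 24 h 3.89% and 3.80% of all probe sets rose. Without vehicle replicate 5 at 24 h the change at 1000 µM was 1.30 and did not pass (adjusted p = 0.0589). Over the 30 arrays the log2 signals of both Gk probe sets had a Pearson r of 0.800, which reflects the groups they share as well as any likeness within them.

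Gpd1, which converts between glycerol-3-phosphate and dihydroxyacetone phosphate, was the brightest of these probe sets and slightly more than doubled in signal. Probe set 1371363_at read 47774, 42975, 49679.7, 44696 and 47359.7 at 250 µM and 44879, 40736, 41604, 40908 and 45498 at 1000 µM, against 27046, 21495, 21347, 15586 and 22225 in vehicle at 48 h. Signals at 24 h were 40707, 40204, 44166, 38977 and 44493 at 250 µM and 35270.4, 40368, 44474, 39642 and 38415 at 1000 µM, against 18717, 20456, 16299.6, 18450.5 and 18014 in vehicle. The groups did not overlap. The log2 change was 1.13 (2.19-fold, adjusted p = 1.4e-12) and 1.01 (2.01-fold, adjusted p = 3.0e-11) at 48 h and 1.18 (2.27-fold, adjusted p = 7.4e-13) and 1.11 (2.16-fold, adjusted p = 4.3e-12) at 24 h, with an SE of 0.09. Against vehicle replicate 4 alone the 48 h changes were 1.57 and 1.45.

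The dimmer Gpd1 probe set gave larger changes. Probe set 1369560_at read 7500.0, 10319.6, 11366, 10624 and 13115 at 250 µM and 6184, 8174, 11228, 8889 and 9366 at 1000 µM, against 1748, 2030.0, 2345, 2758 and 1885 in vehicle at 48 h. The 24 h arrays gave 8249, 8161, 10357, 9659.7 and 9804 at 250 µM and 9301, 8389, 9042, 9566 and 9797 at 1000 µM, against 2823, 2535, 2509, 3476 and 4058 in vehicle. Treated arrays again lay above all vehicle arrays of their time. The changes were 2.29 and 2.02 at 48 h (4.90-fold and 4.05-fold, adjusted p = 6.6e-14 and 2.1e-12) and 1.61 and 1.61 at 24 h (adjusted p = 5.2e-10 and 5.7e-10), with an SE of 0.14. At 48 h this exceeded the change of the brighter probe set by 1.16 at 250 µM and by 1.01 at 1000 µM on the log2 scale; against vehicle replicate 4 alone its changes were 1.92 and 1.64, against 1.57 and 1.45 for the brighter probe set. Both probe sets had a Pearson r of 0.881 over the 30 arrays.

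**Figure D2:**
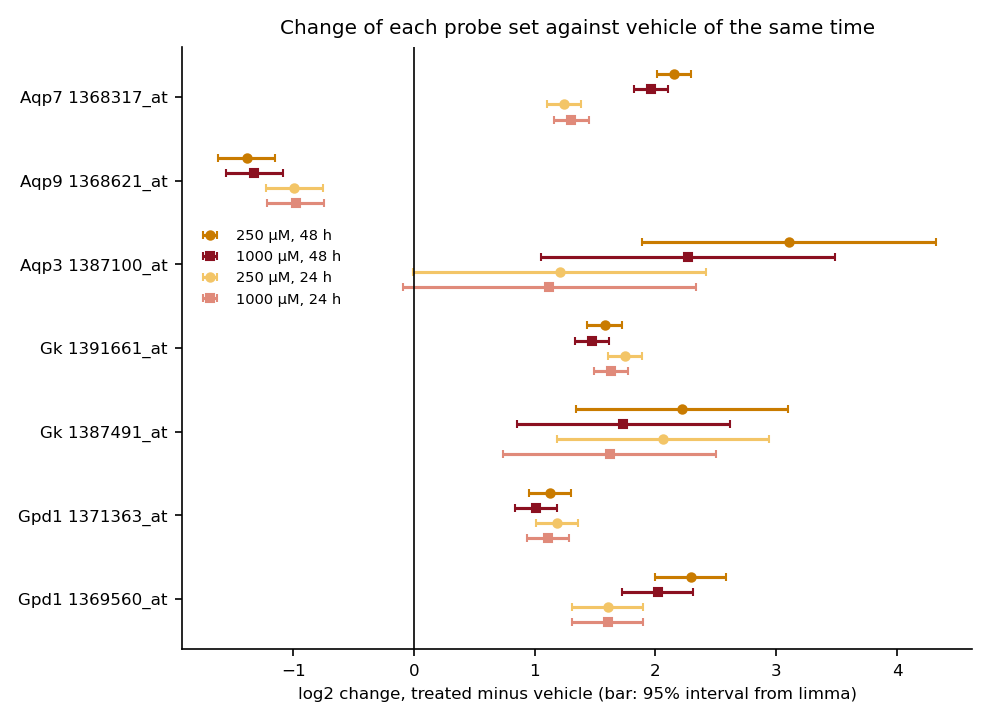
Log2 change of each probe set against vehicle of the same time, treated minus vehicle; points are limma estimates from 5 arrays per group and bars their 95% intervals. Aqp9 alone lies below 0, between -1.38 and -0.98, and the intervals of Aqp3 and of Gk 1387491_at are the widest.

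A dose of 1000 µM was not told apart from 250 µM in any of the 5 genes. Over all tested genes, 0.0665% changed between the doses at 48 h and 0.0190% at 24 h, that is 7 and 2 genes, and 0 of the 4 tested members were among them. The interval left out 0 for Aqp7 at 48 h alone, where 1000 µM was 0.19 below 250 µM (95% interval -0.33 to -0.05, adjusted p = 0.280). For Aqp9 the difference at 48 h was 0.06 (-0.18 to 0.30, adjusted p = 0.868), for Gk 1391661_at it was -0.11 (-0.25 to 0.04, adjusted p = 0.538) and for Gpd1 1371363_at -0.12 (-0.30 to 0.05, adjusted p = 0.565). Gpd1 1369560_at differed by -0.28 (-0.57 to 0.02, adjusted p = 0.627) and Gk 1387491_at by -0.49 (-1.36 to 0.39, adjusted p = 0.824). At 24 h the 4 tested genes differed by between -0.12 and 0.06, each with an adjusted p of 1.00, and Gk 1387491_at by -0.44 (-1.32 to 0.43). Aqp3 at 48 h differed by -0.84 with an interval of -2.05 to 0.38, an interval that spans lower and somewhat higher levels alike. The doses lie 4 times apart, and these intervals bound the difference without showing that the doses act alike.

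Aqp7 was the gene whose rise differed between the times. Its change at 48 h exceeded that at 24 h by 0.91 ± 0.10 at 250 µM (SE, adjusted p = 4.0e-07) and by 0.66 ± 0.10 at 1000 µM (adjusted p = 2.1e-04), the only member called in either comparison, where 8.36% and 0.969% of the tested genes were called. With array medians centred the difference at 1000 µM was 0.59 and did not pass (adjusted p = 0.0526); there the genes called over the whole table were 6 higher and 10 lower, in place of 55 and 47. Against vehicle replicate 4 alone the differences were 0.73 (adjusted p = 0.0047) and 0.48 (adjusted p = 0.138). For Aqp9 the differences were -0.39 and -0.34 (adjusted p = 0.132 and 0.416). Gk 1391661_at had -0.17 and -0.16 (adjusted p = 0.314 and 0.558), Gpd1 1371363_at -0.05 and -0.10 (adjusted p = 0.840 and 0.813), and Gpd1 1369560_at 0.69 and 0.41 (adjusted p = 0.0654 and 0.599). Gk 1387491_at had 0.16 and 0.11 (adjusted p = 0.945 and 0.983), and Aqp3 had 1.90 and 1.15 with an SE of 0.84 (adjusted p = 0.262 and 0.764). Several of these values moved with the choice of vehicle arrays at 48 h. With replicate 4 as the only one, Gk 1391661_at had 0.09 and 0.10 and Gpd1 1371363_at had 0.39 and 0.35, both with the sign turned, and none of these passed (adjusted p between 0.174 and 0.907). In the same setting Gpd1 1369560_at had 0.31 and 0.04, Gk 1387491_at 0.85 and 0.81, Aqp9 -0.51 and -0.46, and Aqp3 1.10 and 0.34, none of them called. The difference of Gpd1 1369560_at at 250 µM passed with array number as a covariate (adjusted p = 0.0138), with sets of 6 consecutive arrays as a block (adjusted p = 0.0166), without replicate 1 at 250 µM and 48 h (0.81, adjusted p = 0.0185) and without vehicle replicate 4 at 48 h (0.78, adjusted p = 0.0133).

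**Figure D3:**
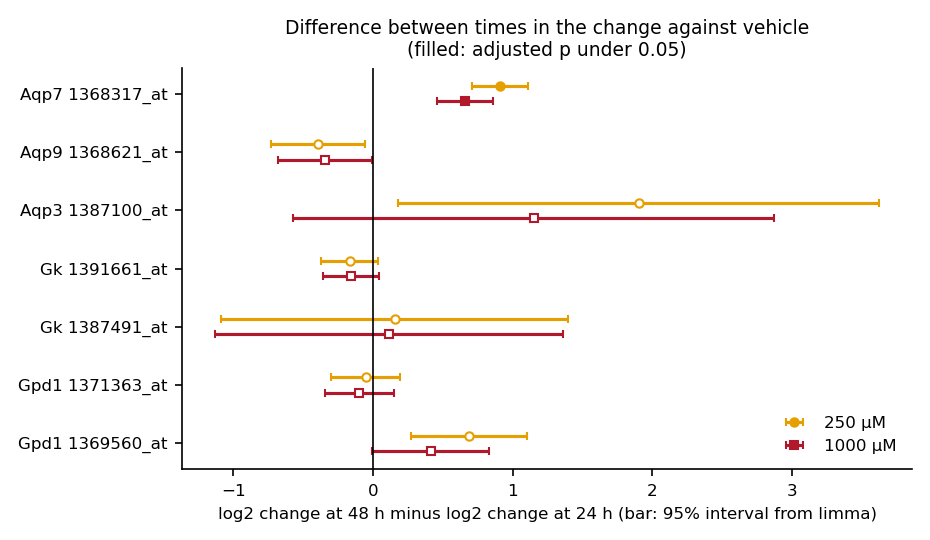
Log2 change against vehicle at 48 h minus that at 24 h, for each probe set and dose; bars are 95% intervals from limma and filled points have an adjusted p under 0.05. Only Aqp7 is filled, at 0.91 for 250 µM and 0.66 for 1000 µM.

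Set in order of level, Aqp7 fell into 3 steps. Both treated groups at 48 h came first and overlapped each other, both treated groups at 24 h came next and overlapped, and vehicle at 48 h and 24 h came last and overlapped. Aqp9 had the same 3 steps turned over, with vehicle at the top and the 48 h treated groups at the bottom. Its change against vehicle was not called different between the times (limma, adjusted p = 0.132 and 0.416). Gk 1391661_at and both Gpd1 probe sets had 2 steps, with the 4 treated groups each overlapping its neighbour in the order and vehicle below them. Aqp3 and Gk 1387491_at had no gap, since each group overlapped the next. The share of all tested genes with such steps was not counted, and nothing is read from them.

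In vehicle alone, 48 h against 24 h, Gk was the only tested member called in the gene fit, where 28.1% of all tested genes were. The dimmer Gpd1 probe set, given in the next paragraph, was called in the fit of all probe sets. Gk 1391661_at was higher by 0.25 ± 0.07 (SE, adjusted p = 0.0073), although the 10 arrays overlapped. The call was lost with only the 2 vehicle groups in the fit (0.25, adjusted p = 0.0895) and with the beta-actin ratio as a covariate (0.13, adjusted p = 0.411), and against vehicle replicate 4 alone the difference was -0.01. Aqp7 differed by 0.16 (adjusted p = 0.0795), Aqp9 by -0.14 (adjusted p = 0.404), Aqp3 by 0.82 (adjusted p = 0.441) and Gk 1387491_at by -0.27 (adjusted p = 0.775). With replicate 4 as the only vehicle array at 48 h these were 0.34, -0.02, 1.62 and -0.97, and none passed (adjusted p between 0.180 and 0.988). With array medians centred, 1704 genes were higher and 471 lower with time in vehicle over the whole table, in place of 1731 and 1232.

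The Gpd1 probe sets moved apart with time in vehicle. Probe set 1371363_at read 0.21 above its 24 h level (adjusted p = 0.0647), or -0.23 with replicate 4 as the only vehicle array at 48 h (adjusted p = 0.415), and 1369560_at was lower by 0.51 (adjusted p = 0.0149), in a fit where 13.5% of all probe sets were called. Within vehicle at 48 h, replicate 1, whose beta-actin ratio was 2.44, had the highest signal of 1371363_at, at 27046, and the lowest of 1369560_at, at 1748. Replicate 4, whose ratio was 1.04, had the lowest of the first, at 15586, and the highest of the other, at 2758. Replicates 2, 3 and 5, with ratios of 1.74, 1.70 and 1.66, lay between on both. With the ratio as a covariate the difference in 1369560_at was -0.16 (adjusted p = 0.769), and with replicate 4 as the only vehicle array at 48 h it was -0.13 (adjusted p = 0.970). The part of RNA quality in the result was not tested beyond these values.

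**Figure D4:**
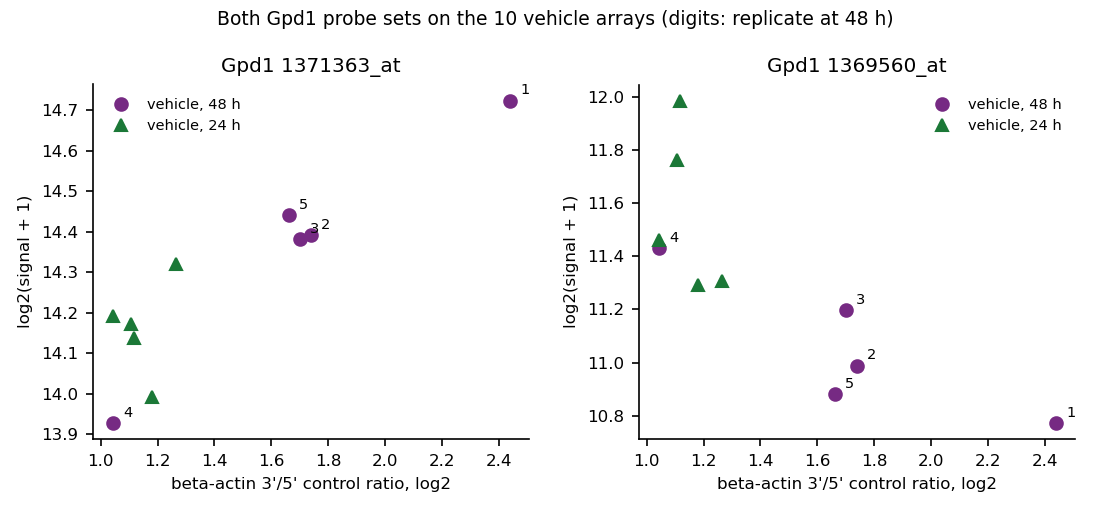
Log2(signal + 1) of both Gpd1 probe sets on the 10 vehicle arrays against the beta-actin 3'/5' control ratio (log2); circles are 48 h, with the replicate number beside them, and triangles 24 h. Replicate 1 at 48 h, at a ratio of 2.44, is highest for 1371363_at and lowest for 1369560_at.

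Across the 30 arrays the tested genes ran closely together, which mostly restates the group differences above. Gk and Gpd1 had a Pearson r of 0.973 and Aqp7 and Aqp9 one of -0.945. Once each group's mean was taken off, these were 0.403 and 0.237, and the remaining 4 pairs lay between -0.409 and -0.076. Here the points share arrays and scaling.

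The tested genes whose log2 signal ran most like that of each member over the 30 arrays are given as a description. For Aqp7 they were Acadm, which starts the breakdown of medium-chain fatty acids (r = 0.978), Gsta4, a glutathione transferase (r = 0.977), and Fabp1, which carries fatty acids inside hepatocytes (r = 0.975). Fabp1 changed by 2.64 and 2.36 at 48 h and by 1.62 and 1.58 at 24 h, so its estimates too were larger at the later time. That difference is given without a test, and the 48 h values rest on the vehicle arrays that stood apart in RNA quality. For Gk they were Acot2, a mitochondrial acyl-CoA thioesterase (r = 0.992), Angptl4, a secreted inhibitor of lipoprotein lipase (r = 0.989), and Lrrc39 (r = 0.988). For Gpd1 they were Abcd3, a peroxisomal membrane transporter (r = 0.990), Acsl1, which activates long-chain fatty acids (r = 0.986), and Hsdl2 (r = 0.984). For Aqp9 they were Synrg (r = 0.945), Ass1, an enzyme of the urea cycle (r = 0.943), and Crip2 (r = 0.940). Ass1 changed by -0.79 and -0.76 at 48 h and by -0.63 and -0.64 at 24 h.

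**Figure D5:**
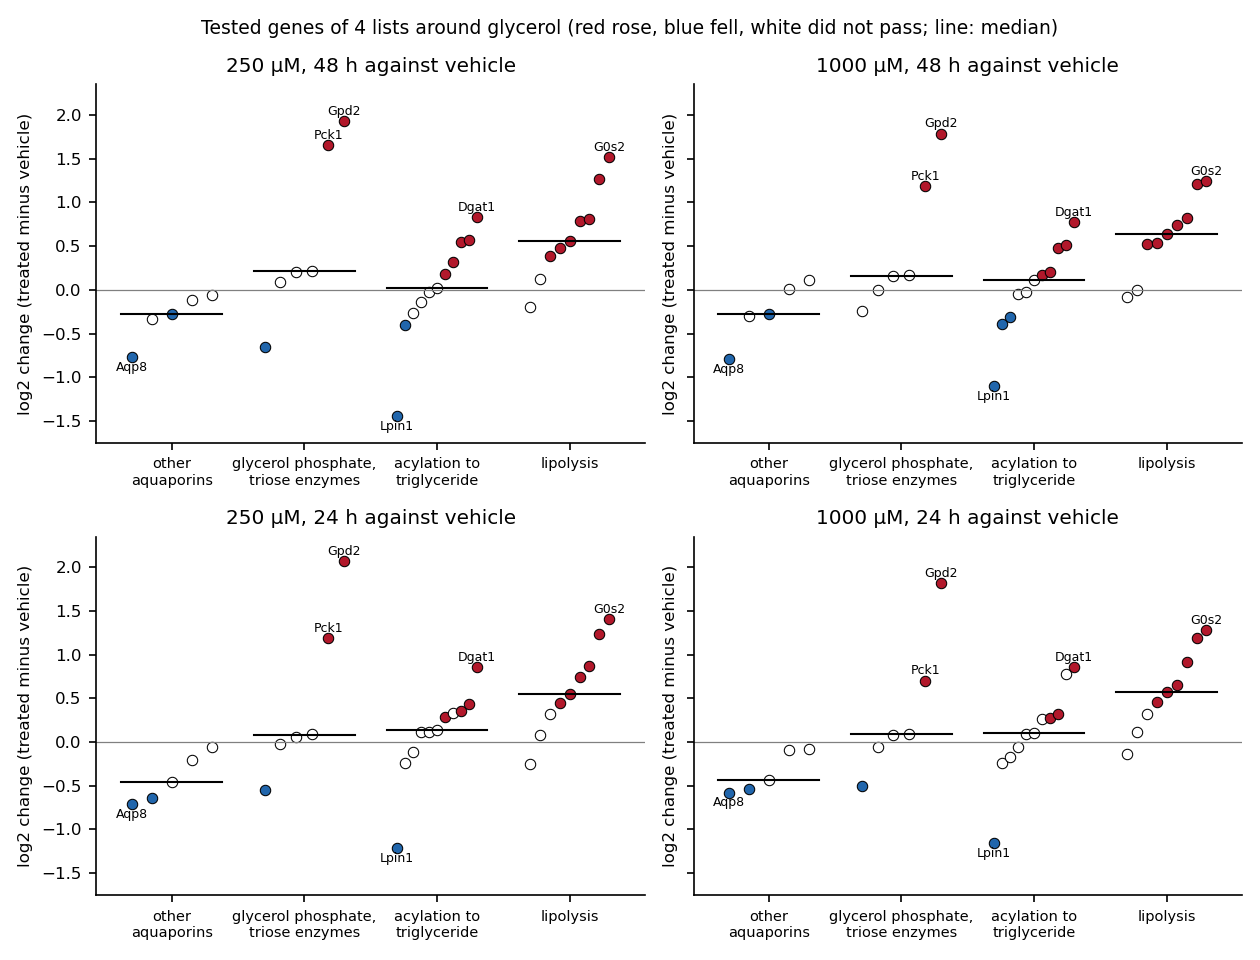
Log2 change against vehicle of the tested genes of 4 lists around glycerol, in the 4 comparisons of dose and time; red points rose, blue points fell, white points did not pass, and lines are list medians. Gpd2 rises furthest, between 1.79 and 2.07, and Lpin1 falls furthest, between -1.44 and -1.10.

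Of 9 other aquaporins, 5 were tested and 2 fell in each of the 4 comparisons, while 0 rose. Between 11% and 26% of all tested genes fell in these comparisons, and nothing is read from 2 of 5 beside that share. Aqp8, a water channel of hepatocytes, had medians of 3446 at 250 µM and 3305 at 1000 µM against 5941 in vehicle at 48 h, and of 3738 and 4183 against 5961 at 24 h. Its change was -0.77 and -0.79 at 48 h (adjusted p = 1.9e-12 and 1.2e-12) and -0.71 and -0.58 at 24 h, and against vehicle replicate 4 alone -0.69 and -0.72. Aqp11, an aquaporin of intracellular membranes, changed by -0.28 and -0.28 at 48 h and by -0.64 and -0.54 at 24 h. Its 48 h calls were lost with array medians centred (adjusted p = 0.0750 and 0.0559), with quantile normalization (0.163 and 0.0884) and against vehicle replicate 4 alone (0.349 and 0.371). The list's median was -0.28 and -0.28 at 48 h and -0.46 and -0.44 at 24 h, where the median of all tested genes was -0.07 and -0.04 at 48 h and -0.03 and -0.03 at 24 h.

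Among 6 tested genes of 8 that handle glycerol phosphate and trioses, Gpd2 and Pck1 rose in all 4 comparisons. Of all tested genes, 15.2% rose and 26% fell at 250 µM and 48 h, against 11.5% and 18.3% at 1000 µM. At 24 h these shares were 8.31% and 11% at 250 µM and 8.28% and 11.2% at 1000 µM. Gpd2, the mitochondrial glycerol-3-phosphate dehydrogenase and partner of Gpd1 in the glycerol phosphate shuttle, had medians of 3015 at 250 µM and 2582 at 1000 µM against 763 in vehicle at 48 h, and of 2582 and 2449 against 674 at 24 h. Its change was 1.93 and 1.79 at 48 h (adjusted p = 7.8e-14 and 8.2e-13) and 2.07 and 1.82 at 24 h (SE 0.13 for each). Pck1, which makes phosphoenolpyruvate for gluconeogenesis and glyceroneogenesis, changed by 1.66 and 1.18 at 48 h and by 1.19 and 0.70 at 24 h (adjusted p between 7.1e-09 and 0.0050). Tkfc, which phosphorylates dihydroxyacetone, fell by 0.65 at 250 µM and 48 h, and its change of -0.24 at 1000 µM and 48 h did not pass (adjusted p = 0.189). At the earlier time it fell by 0.55 and by 0.50. Its call at 48 h was lost with the beta-actin covariate (-0.36, adjusted p = 0.0839) and against vehicle replicate 4 alone (-0.27, adjusted p = 0.535). With quantile normalization the 48 h counts were 4 risen and 1 fallen at 250 µM and 3 risen and 0 fallen at 1000 µM. Over all tested genes, 1751 rose and 2294 fell there at 250 µM, and 1348 rose and 1742 fell at 1000 µM. Against replicate 4 alone, Gpd2 changed by 2.33 and 2.18 and Pck1 by 1.39 and 0.92, both still called. The list's median was 0.21 and 0.16 at 48 h and 0.08 and 0.09 at 24 h, above the medians of all tested genes given above.

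Among the enzymes that acylate glycerol-3-phosphate toward triglyceride, some rose and some fell. Of 16 genes 11 were tested: 5 rose and 2 fell at 250 µM and 5 rose and 3 fell at 1000 µM at 48 h, and 4 rose and 1 fell at 250 µM and 3 rose and 1 fell at 1000 µM at 24 h. Of all tested genes 15.2% rose and 26% fell at 250 µM and 48 h, and 11.5% rose and 18.3% fell at 1000 µM. The number that fell at 48 h was near that share. The 24 h shares were 8.31% risen and 11% fallen at 250 µM, and 8.28% and 11.2% at 1000 µM. The list's median was 0.02 and 0.11 at 48 h and 0.13 and 0.11 at 24 h. Against vehicle replicate 4 alone the list's median at 48 h was 0.29 at 250 µM and 0.18 at 1000 µM. With array medians centred, 4 rose and 2 fell at 250 µM and 48 h, and 3 rose and 3 fell at 1000 µM. Over all tested genes, 1271 rose and 2187 fell in that setting at 250 µM, and 804 rose and 1673 fell at 1000 µM. Lpin1, a phosphatidate phosphatase that makes diacylglycerol, fell furthest, with medians of 6319 at 250 µM and 8688 at 1000 µM against 18522 in vehicle at 48 h, and of 5387 and 5616 against 12819.6 at 24 h. Its change was -1.44 and -1.10 at 48 h (adjusted p = 1.5e-13 and 1.2e-10) and -1.22 and -1.15 at 24 h, and against vehicle replicate 4 alone -0.95 and -0.62. Dgat1, which adds the last acyl chain of triglyceride, rose by 0.83 and 0.77 at 48 h and by 0.85 and 0.86 at 24 h. Agpat2, which acylates lysophosphatidate, rose by 0.55 and 0.47 at 48 h and by 0.28 and 0.28 at 24 h. Dgat2, which catalyses the same step as Dgat1, rose by 0.18 and 0.17 at 48 h and by 0.44 and 0.32 at 24 h, and its 48 h calls were lost with array medians centred (adjusted p = 0.121 and 0.303). Against replicate 4 alone the 48 h changes were 0.98 and 0.92 for Dgat1, 0.56 and 0.49 for Agpat2 and 0.35 and 0.34 for Dgat2.

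The lipolysis list, whose enzymes free glycerol from triglyceride, rose in most of its members. All 9 genes were tested. At each dose 7 rose at 48 h and 6 at 24 h, and 0 fell. Of all tested genes 15.2% and 11.5% rose at 48 h and 8.31% and 8.28% at 24 h, while between 11% and 26% fell. The list's median was 0.56 and 0.64 at 48 h and 0.55 and 0.57 at 24 h. The median of all tested genes lay between -0.07 and -0.03. Against vehicle replicate 4 alone the list's median at 48 h was 0.96 and 0.92. G0s2, a small protein that inhibits the triglyceride lipase Pnpla2 and so is no lipase itself, rose furthest, by 1.52 and 1.25 at 48 h and by 1.41 and 1.28 at 24 h (adjusted p = 1.1e-18, 2.4e-16, 8.6e-18 and 1.2e-16). Mgll, the monoglyceride lipase that frees glycerol itself, had medians of 9309 at 250 µM and 9156 at 1000 µM against 4208 in vehicle at 48 h, and of 7078 and 6812 against 3124 at 24 h. Its change was 1.26 and 1.21 at 48 h and 1.24 and 1.19 at 24 h (adjusted p between 2.5e-14 and 2.0e-13). Lipa, the lysosomal acid lipase, rose by 0.48 and 0.64 at 48 h and by 0.87 and 0.91 at 24 h. Ces1d, a carboxylesterase with triglyceride lipase activity, rose by 0.79 and 0.74 at 48 h and by 0.55 and 0.65 at 24 h. Pnpla2, named here after its values were seen because G0s2 binds it, rose by 0.56 and 0.52 at 48 h and by 0.75 and 0.57 at 24 h. Against vehicle replicate 4 alone the 48 h changes were 1.49 and 1.22 for G0s2, 1.72 and 1.67 for Mgll, 0.98 and 1.14 for Lipa, 0.86 and 0.81 for Ces1d and 0.96 and 0.92 for Pnpla2.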

How the data were processed

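The series holds 30 arrays of rat hepatocyte RNA in 6 groups of 5. The deposited values are MAS5 signals, an intensity on a linear scale, per the submitters' processing notes; the authors' trimmed mean (2% off each end) was 1500.6 to 1500.7 on every array; other settings, not given in the sources used here, are unknown. Signals became log2(signal + 1) with no further scaling, since array medians spanned 0.34, under a bound of 0.5. Controls (57 of 31099 probe sets) and the lowest 40% by mean were left out, and the brightest probe set per gene with 1 symbol was kept, giving 10528 genes. Symbols come from the platform table, updated by gene identifier. Tests used limma 3.58.1 in R 4.3.3 (1 mean per group, 24 residual degrees of freedom, mean-variance trend, 9 contrasts) with Benjamini-Hochberg adjustment over tested genes. A second fit took all 31042 probe sets.

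The members, gene lists and tests were chosen with earlier results of these data known. The text names every member, the 3 tested genes most correlated with each tested member, and up to 4 changed genes per list with the smallest p. The motifs GGGCGG and TATAAA were added after the windows were seen. The main test was tried on simulated data with known changes. Alternatives were centred medians, quantile normalization, a pseudocount of 16, no filter or a 60% filter, every probe set, no trend, only the groups compared, array number or the beta-actin ratio as a covariate, vehicle replicate 4 alone at 48 h, and leaving out each array. For the gene lists, such alternatives were chosen after seeing the data. The number of arrays limits the precision. Replicates were numbered in accession order; the labels name no batch or pairing, but the titles place each number on 6 consecutive arrays, 1 of each group, and a fit with these 5 sets as a block was added after seeing the data.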

Additional observations from a re-analysis of the deposited data

Results flagged for a closer look

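In the Aqp3 probe set, vehicle replicate 5 at 24 h read 143, far from the other 4 arrays of its group, at 15.2 to 21.9. In the same probe set, replicate 4 at 1000 µM and 48 h read 101, far from the other 4, at 286 to 376. These were 2 of 42 groups of 5 arrays looked at, and chance alone gives about 5%. Both arrays belong to a gene read near or under the low-signal limit.

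The rise of Aqp7 differed between times. Its log2 change was larger at 48 h than at 24 h by 0.91 at 250 µM and by 0.66 at 1000 µM. Each passed limma's test of that difference, among 14 such differences over the 7 probe sets. With array medians centred the difference at 1000 µM was 0.59 and did not pass (limma, adjusted p = 0.0526). Against vehicle replicate 4 alone the differences were 0.73 and 0.48.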

How the results depend on the processing

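For Aqp7, Aqp9, Gk 1391661_at and Gpd1 1371363_at, all 344 values computed under the alternatives in the 4 comparisons with vehicle kept their direction and call. In several settings the log2 change equals that of the main fit by construction, so only the call could move. These were the 2 other filters, every probe set, no trend, only the groups compared and the array sets as a block. Over all 7 probe sets and 9 comparisons, the settings other than leaving out single arrays gave 633 values with the same call. In these settings 10 values lost the call, 3 gained it and 1 called value changed sign. That was Gk 1391661_at with time in vehicle, at -0.0055 against vehicle replicate 4 alone. The cause of these moves was not tested. With the 5 sets of 6 consecutive arrays as a block, chosen after seeing the data, 1 call changed. It was the time difference of Gpd1 1369560_at at 250 µM (0.69, adjusted p = 0.0166), and every count of called genes stayed within 1.5 times. Deviations from the group means correlated at a median of 0.04 within a set (-0.12 to 0.22, 75 pairs). Between sets the median was -0.01 (-0.33 to 0.28, 300 pairs). Correlations over 0.1 were seen in 19 of the 75 pairs and in 27 of the 300. Closest to their own set were 15 of 30 arrays, where chance would give about 1 in 5. Arrays of a set thus ran somewhat alike, and the main fit holds no term for the sets. Array medians centred gave 1332 called genes at 250 µM and 1291 at 1000 µM at 24 h, 2 between doses at 48 h and 0 at 24 h, and 152 and 16 for the time differences at 250 and 1000 µM, with 0 members in the last. Quantile normalization gave 157 genes for the time difference at 1000 µM and 2 members with time in vehicle. Every probe set on its own gave 0 between doses at 24 h and 64 for the time difference at 1000 µM; no trend gave 0 and 65. Only the groups compared gave 4 genes (24 h) and 3 (48 h) between doses, 1902 genes and 0 members with time in vehicle, and 36 for the time difference at 1000 µM. The beta-actin covariate gave 2782 genes at 250 µM and 48 h, 749 genes and 0 members with time in vehicle, and 248 for the time difference at 250 µM. Vehicle replicate 4 alone gave 1380 and 1177 genes at 250 and 1000 µM and 48 h, 146 genes and 0 members with time in vehicle, and 58 and 38 genes for the time differences, with 0 members at 1000 µM; it has fewer arrays. Leaving out each array in turn gave 0 to 3 genes between doses at 24 h and 1 to 20 at 48 h (20 without replicate 3 at 1000 µM), 1 to 2 members with time in vehicle, and 609 to 1789 and 63 to 322 genes for the time differences, both upper values without vehicle replicate 4 at 48 h (at 1000 µM 203 without vehicle replicate 1 at 24 h, and 63 to 65 without single others); 3 of the 770 values of single probe sets lost their call and 6 gained one. Signals under the limit, as for Aqp3, leave the size of a fold change open.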

Other observations

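In the dimmer Gk probe set, 1387491_at, the vehicle arrays ordered by the array number in the titles read 3889 on array 1, 2171 on array 4, 1690.1 on array 7 and 2505 on array 10, then 644 on array 13, 719 on array 16, 951 on array 19, 578 on array 22, 464 on array 25 and 321 on array 28. This was seen after the values were known, and the arrays in question hold both times. The brighter probe set of the gene read 2948, 3341, 2524 and 3083 on the first 4 of these arrays and between 2234 and 3474 on the other 6. Treated arrays of 1387491_at read between 2491 and 6121 over all array numbers. In the first set of arrays, vehicle at 24 h, at 3889, lay above 3072 at 250 µM and 3281 at 1000 µM. With array number as a covariate the changes of 1387491_at were 2.26 and 1.81 at 48 h and 2.10 and 1.69 at 24 h, all called. That covariate takes 1 slope for all groups, so it cannot take out a fall seen in vehicle alone. Nothing about that fall is read from these calls.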
